A study of Mus musculus with 8 samples.

Results

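Proteasome genes were followed across 4 groups of mouse CD8+ T cells. They were the 44 genes whose symbol begins with Psma, Psmb, Psmc, Psmd or Psme followed by a digit, pseudogene symbols left out, among 16442 genes in the authors' table of regularized log2 values. RNA-seq counts came from CD8+ T cells of C57BL/6 mice, taken from lymph node and spleen. In all groups the cells were stimulated with antibodies against CD3 and CD28. They were cultured for 48 hours with EnPGC-1, with Ctrl PIP, with the CBP and p300 bromodomain inhibitor SGC-CBP30, or with the vehicle DMSO. There were 2 libraries per group and 8 in all. The labels give no doses, so responses to the compounds could not be set at matched dose, and they do not tell from which animals or cultures the replicates came. A p-value therefore measures the spread between libraries, which may be technical. The study's title concerns a compound meant to raise mitochondrial biogenesis in T cells, and the proteasome comparisons describe a machinery that this aim did not name.

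The proteasome degrades proteins that carry ubiquitin chains. Its core is a barrel of alpha and beta rings, in which 3 of the beta subunits, Psmb5, Psmb6 and Psmb7, cut protein. Lymphocytes and cells exposed to interferon replace these by Psmb8, Psmb9 and Psmb10, which make the immunoproteasome, and cap the barrel with the PA28 activator of Psme1 and Psme2. The immunoproteasome favours peptides that fit MHC class I molecules. The regulatory particle, built of ATPases (Psmc) and other subunits (Psmd), recognizes and unfolds the substrates.

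By role the 44 genes held 7 subunits of the alpha ring, 4 structural beta subunits, 3 constitutive and 3 immunoproteasome catalytic subunits, 6 ATPases, 11 other subunits of the regulatory particle, 3 chaperones of its assembly (Psmd5, Psmd9 and Psmd10), 2 PA28 subunits of the immunoproteasome, and the activators Psme3 (PA28 gamma) and Psme4 (PA200). The symbol rule also took Psme2b, a copy of Psme2 whose counts are uncertain because reads of near-identical copies may be split between them, and 2 genes whose products are not proteasome subunits, Psmc3ip (a recombination cofactor) and Psme3ip1 (a partner of PA28 gamma). All 44 passed the filter on low counts. Psmb11, the subunit of thymic epithelium, and Psma8, that of the testis, were outside the rule and lay between 0 and 0.19 CPM (read counts scaled to a common library size).

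The stretches before the start sites of a constitutive and an immunoproteasome member and of Psmb9 are shown so that the motifs before a catalytic subunit, its immunoproteasome counterpart and the neighbour of Tap1 can be read side by side. They come from RefSeq on GRCm38.p6, read 5′ to 3′ on the strand of the gene. Psmb5 lies on the minus strand of chromosome 14, at chr14:54614120-54617995, and the stretch is chr14:54617996-54618245. Psmb8 lies on the plus strand of chromosome 17, at chr17:34198195-34201454, with the stretch chr17:34197945-34198194. Psmb9 lies on the minus strand at chr17:34182030-34187330, with the stretch chr17:34187331-34187555, which ends where Tap1, the peptide transporter of the class I pathway, begins on the other strand. The start sites of Psmb9 and Tap1 are 226 bases apart. Capitals mark matches, on either strand, to TGACNNNGC (the core of the antioxidant response element, ARE), TTCNNNGAA (the interferon gamma activated site, GAS), GAAA followed by any 2 bases and GAAA (the interferon-stimulated response element, ISRE), CCAAT or its complement, and GGGCGG (the GC box) or its complement.
Psmb5: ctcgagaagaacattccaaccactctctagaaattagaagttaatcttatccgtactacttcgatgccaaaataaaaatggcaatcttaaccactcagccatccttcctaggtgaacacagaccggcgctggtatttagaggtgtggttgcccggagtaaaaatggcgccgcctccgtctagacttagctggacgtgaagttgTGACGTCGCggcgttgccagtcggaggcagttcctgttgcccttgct
Psmb8: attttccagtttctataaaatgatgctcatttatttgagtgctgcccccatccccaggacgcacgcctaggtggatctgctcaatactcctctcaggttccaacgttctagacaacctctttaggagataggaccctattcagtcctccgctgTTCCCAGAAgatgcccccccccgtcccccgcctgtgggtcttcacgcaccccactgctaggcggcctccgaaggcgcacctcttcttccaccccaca
Psmb9: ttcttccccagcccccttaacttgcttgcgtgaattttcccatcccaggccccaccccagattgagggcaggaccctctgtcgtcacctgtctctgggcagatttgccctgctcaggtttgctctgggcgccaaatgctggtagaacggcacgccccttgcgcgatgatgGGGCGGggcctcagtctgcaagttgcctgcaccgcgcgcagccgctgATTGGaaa
The match in Psmb5 is TGACGTCGC, 47 bases before the start, and that in Psmb8 is TTCCCAGAA, 97 bases before it. Psmb9 holds a CCAAT box on the other strand 8 bases before its start and a GC box at 55. Over the 250 bases before the start of 38 members with an entry, the ARE core stood in 5 (13.2%, against 11.5% of all 27025 genes with an entry), GAS in 1 (2.63%, against 8.13%), ISRE in 3 (7.89%, against 3.46%), CCAAT in 15 (39.5%, against 37.5%) and the GC box in 22 (57.9%, against 35.4%). These matches describe letters in a window, not binding. Psmb1, Psmb2, Psmb7, Psmc3, Psmd3 and Psmd7 had no entry.

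Total counts per library ranged from 38890043 to 55491261. The cells carried the T cell markers Cd8a, Cd8b1, Cd3d, Cd3e, Cd3g, Cd2, Lck and Thy1, which summed to 3964 to 5625 CPM. In DMSO and in EnPGC-1 the replicates stood apart from each other. The ribosomal RNA gene Rn18s-rs5 was at 10073 and 9044 CPM in their second libraries, against 1119 to 2311 CPM elsewhere. Across genes, the deviation of log2 CPM from a gene's mean had a Spearman rho with transcript length of 0.57 and 0.47 in the first DMSO and EnPGC-1 libraries, of -0.62 and -0.53 in their second, of -0.52 and -0.16 under Ctrl PIP, and of 0.54 and 0.51 under SGC-CBP30. The 7 B cell markers summed to 42.4 to 58.1 CPM in the DMSO and EnPGC-1 libraries, 25.5 to 40.4 CPM under Ctrl PIP and 19.2 to 24 CPM under SGC-CBP30, and none of the 7 was at 0 in any library. Cd79b alone gave 16.3 to 26.9 CPM of these sums. Other markers varied more, such as Ms4a1, at 6.51 and 1.64 CPM in DMSO and 0.755 and 0.0933 CPM under SGC-CBP30. Myeloid markers summed to 2.58 to 11.3 CPM and erythroid markers to 1.34 to 13.9 CPM. Csf1r, Cd14, Adgre1 and Alas2 were at 0 in some libraries. The 3 NK cell markers summed to 40 to 73.7 CPM, nearly all of it Eomes, which activated CD8+ T cells also express.

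The proteasome genes moved with this split between replicates. Together they took 4838 CPM in the first DMSO library but 9505 CPM in the second, and 4379 and 6381 CPM under EnPGC-1. Under Ctrl PIP they took 7238 and 6623 CPM, and under SGC-CBP30 4987 and 5216 CPM. Replicate 2 of DMSO held 42 of the 44 members higher than replicate 1, at a median ratio of 2, while 48.5% of all tested genes were higher in it. Replicate 2 of EnPGC-1 held 40 of 44 higher, at a median ratio of 1.54. The ratios with Ctrl PIP (median 0.93, 13 of 44 higher) and SGC-CBP30 (1.07, 35 of 44 higher) were closer to equality. Shorter members had the larger ratios: across the 44 genes, which are not independent replicates, the Spearman rho of the ratio with length was -0.59 in DMSO and -0.48 in EnPGC-1. Psme2b went the other way, with a ratio of 0.116 in DMSO and 0.218 in EnPGC-1. Under Ctrl PIP the rho over the 44 genes was 0.49, so longer members had the larger ratios there, and under SGC-CBP30 it was 0.02. The part of the length trend, the ribosomal RNA and the B cell markers in what follows was not tested, except where a value with the length trend removed is given.

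**Figure D1:**
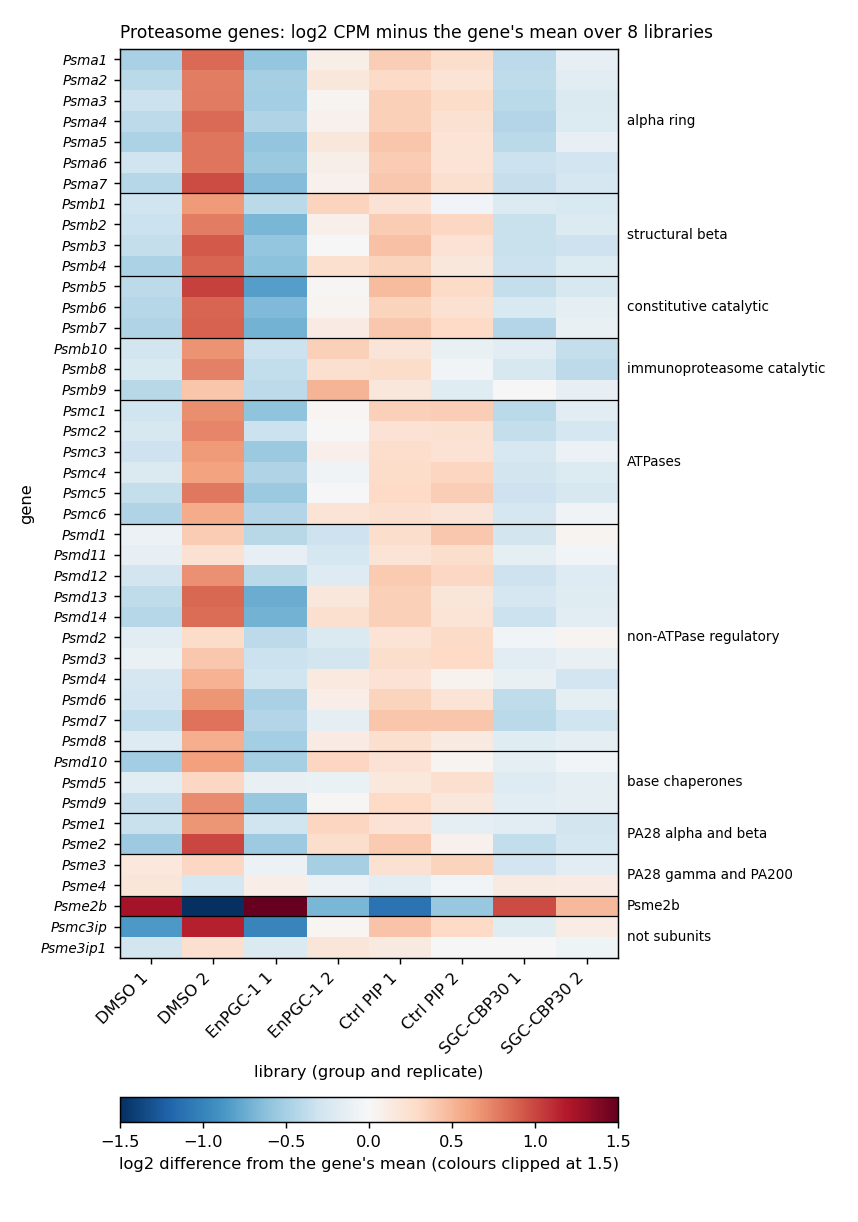
Each row is 1 of the 44 genes and each column 1 library; colour gives log2 CPM minus the gene's mean over the 8 libraries, from blue (below) to red (above), clipped at 1.5. Replicate 2 of DMSO is above the mean for most genes, the Ctrl PIP libraries are moderately above it, and replicate 1 of EnPGC-1 and the SGC-CBP30 libraries are mostly below it, with Psme2b reversed.

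**Figure D2:**
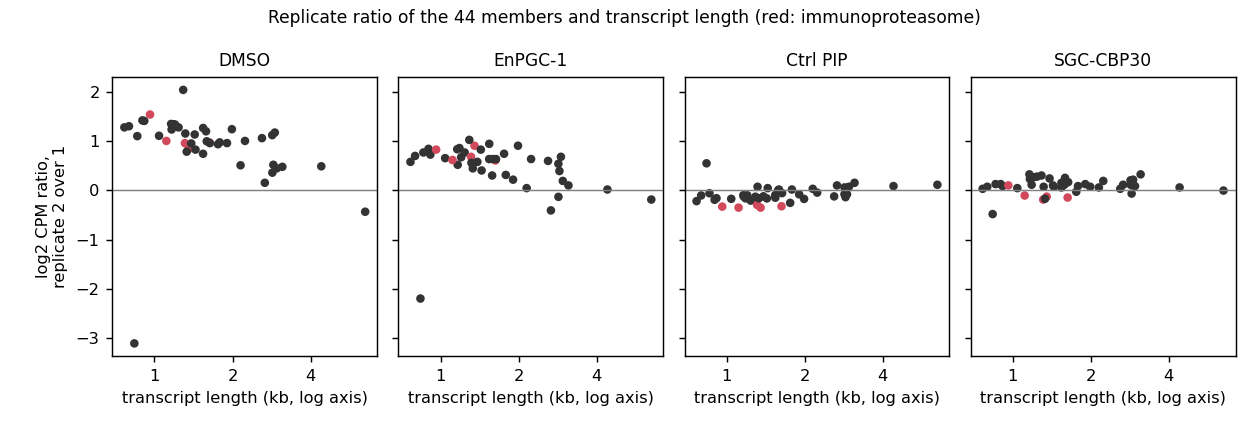
Points are the 44 genes, with the log2 ratio of CPM in replicate 2 over replicate 1 on the y axis and transcript length in kilobases on a log x axis, in 1 panel per group; immunoproteasome genes are red. Shorter genes have higher ratios in DMSO and EnPGC-1, where the median ratios are 2 and 1.54. The median ratios of Ctrl PIP and SGC-CBP30 are near equality, and in Ctrl PIP longer genes have the higher ratios (Spearman rho 0.49).

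On the scale of CPM per kilobase of transcript, which allows genes to be compared, 3 of the 5 immunoproteasome genes had the highest levels. Psme1 had the highest mean level over the 8 libraries (372 CPM per kilobase, range 287 to 573), followed by Psmb8 (285, range 210 to 463) and Psme2 (273, range 174 to 511). Psma7, an alpha subunit, came next at 185 CPM per kilobase, with a range of 111 to 342, and then Psmb9 at 177, with a range of 130 to 247. These ranges overlap, but the levels rose and fell together across libraries, so overlap alone does not settle the order among neighbours. Psme1 averaged above Psmb8 in each group: 430 against 349 in DMSO, 373 against 269 in EnPGC-1, 375 against 301 in Ctrl PIP and 311 against 221 in SGC-CBP30. Psmb8 and Psme2 were both at 301 under Ctrl PIP. The constitutive catalytic subunits were lower: Psmb6 averaged 125, Psmb7 105 and Psmb5 101 CPM per kilobase, and Psmb10 averaged 108. ATPases ran from 51.4 (Psmc6) to 98.3 (Psmc3) CPM per kilobase. The regulatory chaperones Psmd5 (11.3) and Psmd9 (9.82) and the large activator Psme4 (15.6) were near the low end. The 5 immunoproteasome genes made up 24 and 25.4% of the members' summed CPM in DMSO, 25.8 and 28.7% in EnPGC-1, 24.2 and 21% in Ctrl PIP, and 25.8 and 23% in SGC-CBP30.

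The comparison of EnPGC-1 with its control compound, Ctrl PIP, put 40 of the 44 genes below 0 on the log2 scale, with a median log2 fold change of -0.47 against 0.05 over all genes tested. The 5 immunoproteasome genes, 3 of them below 0, had a median of -0.01, against -0.49 for the other 39, a difference that was not tested. No member passed edgeR's quasi-likelihood test over the 8 libraries after Benjamini-Hochberg adjustment at 0.05 (0 of 44, and 0% of 16750 genes). DESeq2 and limma on the authors' log2 values also called 0 members. At an unadjusted p under 0.05 edgeR had 4 of 44 members lower (2.77% of all genes), namely Psmd1, Psmd2, Psmd3 and Psme3. Both EnPGC-1 libraries lay below both Ctrl PIP libraries in 30 of the 44 members, against 21.7% of all genes. All 7 alpha subunits, the 3 constitutive catalytic subunits, 5 of 6 ATPases, 9 of 11 other regulatory subunits and none of the 5 immunoproteasome genes were among them. With an offset for transcript length the median of the 44 was -0.44, and with a library of either group left out it ran from -0.76 to -0.22. Replicate 2 of EnPGC-1 sets much of that range, since the median without it was -0.76 and the median without replicate 1 was -0.22. In bulk RNA, fewer cells of a type and less RNA per cell cannot be told apart.

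SGC-CBP30 and Ctrl PIP were the 2 groups whose replicates lay closer together. They differed from each other in the length trend, with a Spearman rho of 0.54 and 0.51 under SGC-CBP30 against -0.52 and -0.16 under Ctrl PIP. The part of that trend in this comparison was not tested beyond the offset given below. Of the 44 genes, 42 were below 0, with a median log2 fold change of -0.50 against 0.01 over all genes. In 40 members both SGC-CBP30 libraries were below both Ctrl PIP libraries (30.2% of all genes), and in 2 members, Psme4 and Psme2b, they were above (31.5% of all genes). edgeR's quasi-likelihood test over all 8 libraries called 0 of 44 members and 0% of 16750 genes, with 1 member, Psme3, lower at an unadjusted p under 0.05 (2.56% of all genes), and DESeq2 and limma called 0. That test takes its spread from all 4 groups. When only the 4 libraries of SGC-CBP30 and Ctrl PIP were fitted, edgeR's quasi-likelihood test with Benjamini-Hochberg adjustment called 26 of the 44: 25 fell (8.51% of 15660 genes were called lower) and Psme2b rose (7.27% were called higher). Fits of all groups without the first, or without the second, DMSO and EnPGC-1 libraries gave nearly the same counts, with 25 lower (7.17% of genes) and 1 higher (6.09%), or 24 lower (5.84%) and 1 higher (4.88%). Those fits left DMSO and EnPGC-1 with 1 library each, so their spread came from the same 4 libraries of SGC-CBP30 and Ctrl PIP. For this comparison they repeat nearly the same test, and the like counts do not replicate the 26 calls. Neither the fit of 4 libraries nor those fits held an offset for transcript length. With that offset the fit of 8 libraries gave a median of -0.35 and called 0 members, as it also did without the offset. Whether the offset changes the 26 calls was therefore not tested. Without the offset, no left-out library moved the median outside -0.58 to -0.43.

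The 25 members that fell in the fit of these 4 libraries came from the barrel, from the base and lid of the regulatory particle and from the activators. They were all 7 alpha subunits, 3 of 4 structural beta subunits (Psmb2, Psmb3 and Psmb4), all 3 constitutive catalytic subunits, 4 of 6 ATPases (Psmc1, Psmc2, Psmc4 and Psmc5) and 6 of 11 other regulatory subunits, with Psme2 and Psme3. Psmd7, a lid subunit that pairs with the deubiquitinase Psmd14, had the smallest p, at a log2 fold change of -0.77 (SE 0.11, adjusted p = 0.0127 by edgeR with 4 libraries). Psmb5, with the chymotrypsin-like activity, was at -0.69 (SE 0.12, adjusted p = 0.0159 in the same edgeR fit). Psmb8, Psmb9 and Psmb10 were not among them, and neither was Psme1. Whether the immunoproteasome and the constitutive genes differ in this response was not tested.

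**Figure D3:**
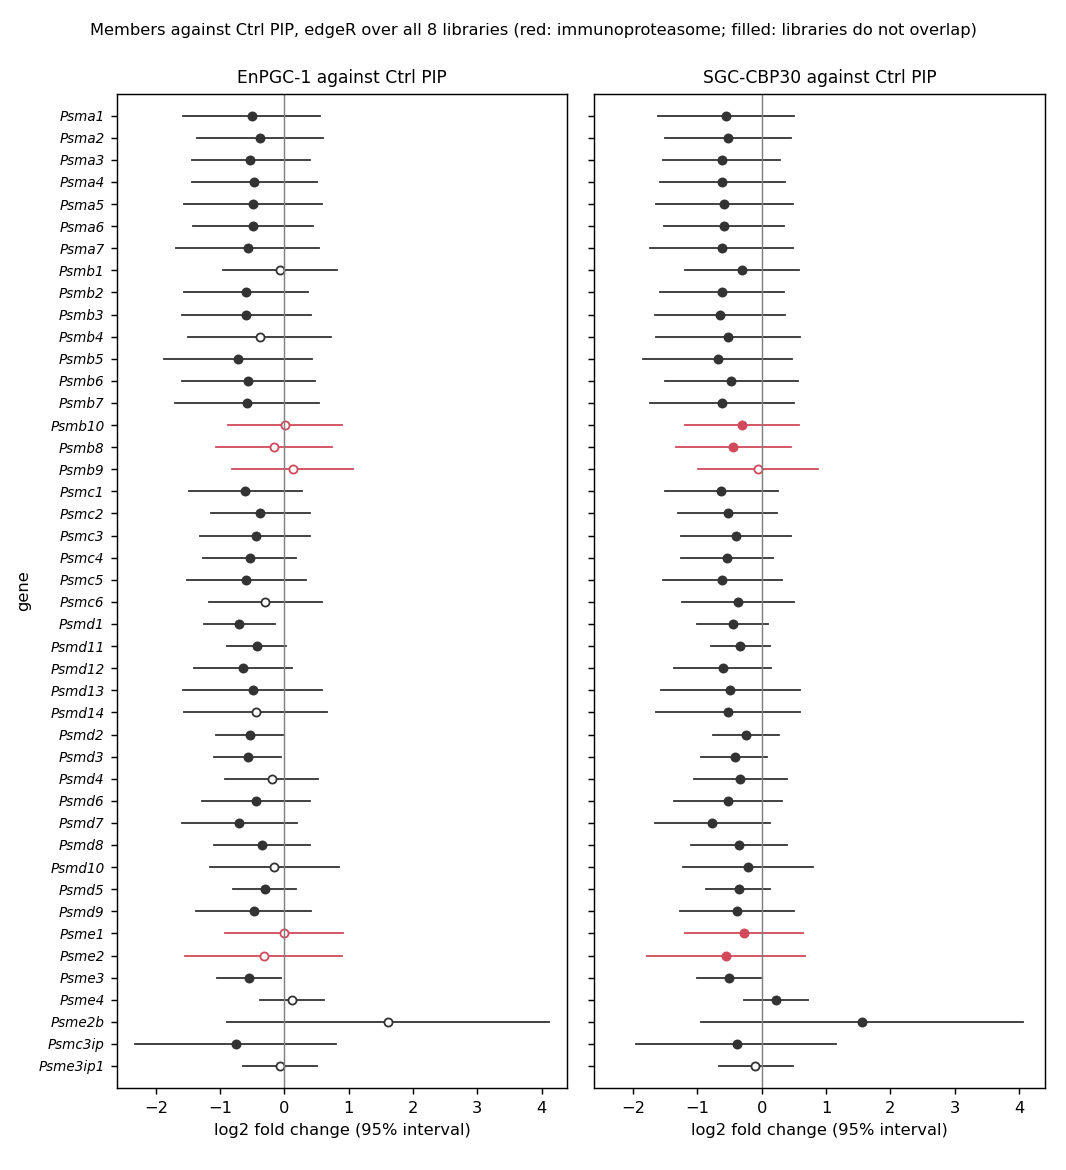
Points are log2 fold changes of the 44 genes against Ctrl PIP from edgeR over all 8 libraries, and lines their 95% intervals; immunoproteasome genes are red, and filled points have both libraries of a group outside those of the other. Most genes lie below 0 in both panels, at medians of -0.47 with EnPGC-1 and -0.50 with SGC-CBP30, and the red points of the EnPGC-1 panel run from -0.32 to 0.13.

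The constitutive catalytic subunits carried this pattern in each library. Psmb5 was at 117 and 103 CPM with Ctrl PIP, 65.7 and 71.5 with SGC-CBP30, 47.6 and 85.4 with EnPGC-1 and 64.2 and 172 with DMSO. The EnPGC-1 and SGC-CBP30 libraries were all below those of Ctrl PIP, while replicate 2 of DMSO was the highest of the 8. Psmb6, the caspase-like subunit, was at 119 and 111 CPM with Ctrl PIP, 80.7 and 85.1 with SGC-CBP30, 59.8 and 96.9 with EnPGC-1 and 70.2 and 173 with DMSO. Psmb7, the trypsin-like subunit, was at 151 and 141 CPM with Ctrl PIP, 84.6 and 106 with SGC-CBP30, 69.9 and 125 with EnPGC-1 and 83.6 and 212 with DMSO. In both genes, too, every library of EnPGC-1 and SGC-CBP30 lay below those of Ctrl PIP, and replicate 2 of DMSO was the highest. Against Ctrl PIP over 8 libraries, the log2 fold changes with EnPGC-1 were -0.72 (SE 0.48) for Psmb5, -0.56 (SE 0.43) for Psmb6 and -0.59 (SE 0.47) for Psmb7. With SGC-CBP30 they were -0.68, -0.47 and -0.62, with the same errors.

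Psmb8, Psmb9 and Psmb10 showed less separation. Psmb8, the partner of Psmb5, was at 544 and 434 CPM with Ctrl PIP, 379 and 341 with SGC-CBP30, 348 and 527 with EnPGC-1 and 383 and 753 with DMSO. Psmb9, which replaces Psmb6, was at 263 and 206 CPM with Ctrl PIP, 235 and 215 with SGC-CBP30, 178 and 334 with EnPGC-1 and 175 and 312 with DMSO. Its highest library was replicate 2 of EnPGC-1, and all groups overlapped. Psmb10, which replaces Psmb7, was at 157 and 127 CPM with Ctrl PIP, 122 and 107 with SGC-CBP30, 110 and 175 with EnPGC-1 and 113 and 219 with DMSO. EnPGC-1 and Ctrl PIP overlapped in all 3 genes, with log2 fold changes of -0.16 (SE 0.37) for Psmb8, 0.13 (SE 0.39) for Psmb9 and 0.01 (SE 0.37) for Psmb10. The 95% intervals were -1.06 to 0.74 for Psmb8, -0.81 to 1.06 for Psmb9 and -0.88 to 0.89 for Psmb10, so changes of the size seen in Psmb5 are not excluded. With SGC-CBP30 against Ctrl PIP, Psmb8 was at -0.44 and Psmb10 at -0.31 without overlap of the libraries, and Psmb9 at -0.06 with overlap.

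The share of the immunoproteasome subunit within each catalytic pair compares 2 genes within a library, and it was computed on CPM per kilobase. Psmb8 made up 80.1 and 77.3% of Psmb8 plus Psmb5 with EnPGC-1, against 71.9 and 70% with Ctrl PIP, 76.7 and 70.8% with DMSO and 76.1 and 72.5% with SGC-CBP30. Psmb9 made up 63.7 and 67% of Psmb9 plus Psmb6 with EnPGC-1, against 56.5 and 52.3% with Ctrl PIP, 59.6 and 51.7% with DMSO and 63.3 and 59.9% with SGC-CBP30. Psmb10 made up 58.1 and 55.4% of Psmb10 plus Psmb7 with EnPGC-1, against 47.8 and 44.4% with Ctrl PIP, 54.5 and 47.7% with DMSO and 56.1 and 47.2% with SGC-CBP30. In all 3 pairs both EnPGC-1 libraries stood above both libraries of Ctrl PIP and of DMSO. The mean shares of EnPGC-1 and Ctrl PIP were 78.7% ± 1.98 and 71% ± 1.34 for Psmb8, 65.3% ± 2.33 and 54.4% ± 2.97 for Psmb9 and 56.8% ± 1.91 and 46.1% ± 2.4 for Psmb10 (SD, n = 2 each). No test was made of these shares, which are scores over chosen genes. SGC-CBP30 overlapped EnPGC-1 in the Psmb10 pair and lay below it in the other 2 pairs. After each library's trend on transcript length was removed, the Psmb9 share was 61.1 and 68.7% with EnPGC-1 and 58.1 and 52.3% with Ctrl PIP. EnPGC-1 stayed above Ctrl PIP and DMSO in all 3 pairs. SGC-CBP30 was then at 62.3 and 59.1% in the Psmb9 pair, where it overlapped EnPGC-1. In the Psmb10 pair SGC-CBP30 was then at 55.8 and 47%, below the 57.5 and 55.9% of EnPGC-1 by a narrow gap. The B cell markers, which also come from cells rich in the immunoproteasome, were at 58.1 and 47 CPM with EnPGC-1, against 3964 to 5625 CPM of T cell markers. Of the B cell sums, Cd79b gave 20.4 and 26.9 CPM. The part of B cells in the shares was not tested.

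**Figure D4:**
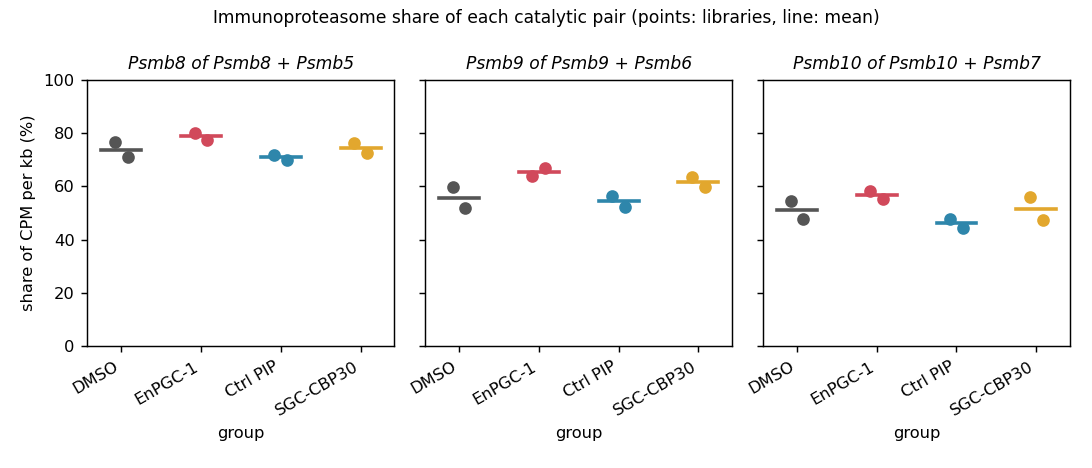
The y axis gives the percentage of CPM per kilobase that the immunoproteasome subunit takes within each catalytic pair, with 1 point per library and a line at the mean of each group. Both EnPGC-1 points lie above both Ctrl PIP and both DMSO points in each of the 3 panels, with means of 78.7, 65.3 and 56.8%.

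Among the activators, the PA28 subunits of the immunoproteasome followed Psmb8. Psme1 was at 468 and 366 CPM with Ctrl PIP, 358 and 332 with SGC-CBP30, 327 and 502 with EnPGC-1 and 319 and 637 with DMSO. Psme2 was at 323 and 256 CPM with Ctrl PIP, 190 and 204 with SGC-CBP30, 168 and 296 with EnPGC-1 and 169 and 492 with DMSO. SGC-CBP30 lay below Ctrl PIP in both genes and EnPGC-1 overlapped it. Psme2 was called at a log2 fold change of -0.56 (adjusted p = 0.0365, edgeR with the 4 libraries of SGC-CBP30 and Ctrl PIP). Psme2b had 4.1 and 5.97 CPM with Ctrl PIP, 17.4 and 12.4 with SGC-CBP30, 25.3 and 5.51 with EnPGC-1 and 21 and 2.43 with DMSO. Its libraries ran opposite to those of Psme2, and its counts cannot be separated with certainty from those of Psme2.

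Psme3, the nuclear PA28 gamma activator that works without ubiquitin, had the smallest unadjusted p of the 44 in 3 comparisons, EnPGC-1 and SGC-CBP30 against DMSO and SGC-CBP30 against Ctrl PIP. It was at 200 and 215 CPM with Ctrl PIP, 191 and 211 with DMSO, 140 and 152 with SGC-CBP30 and 161 and 121 with EnPGC-1. Here the replicates of DMSO were close, and all 4 libraries of the compounds EnPGC-1 and SGC-CBP30 lay below all 4 of DMSO and Ctrl PIP. Against DMSO the log2 fold change was -0.51 with EnPGC-1 (SE 0.21) and -0.46 with SGC-CBP30 (SE 0.21). Against Ctrl PIP it was -0.55 with EnPGC-1 and -0.51 with SGC-CBP30. The adjusted p of edgeR's quasi-likelihood test was 0.812 or higher in these 4 comparisons, which share their control libraries in pairs. The gene lies at chr11:101316213-101323537, with a transcript of 2664 bases. Psme4, the PA200 activator with the longest transcript of the 44 (6491 bases), was at 90.5 and 97.9 CPM with Ctrl PIP, 111 and 110 with SGC-CBP30, 108 and 95.1 with EnPGC-1 and 114 and 83.9 with DMSO. Its log2 fold changes against Ctrl PIP were 0.11 with EnPGC-1 and 0.23 with SGC-CBP30, and both turned negative, to -0.08 and -0.11, with the offset for transcript length.

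In the regulatory particle, 3 large subunits of the base and lid, Psmd1, Psmd2 and Psmd3, had replicates of EnPGC-1 close together. This was not particular to them, since Psmd11 was at 85.3 and 77.7 CPM with EnPGC-1 and Psmd12 at 56.9 and 66.1. Psmd1, a scaffold of the base, was at 161 and 178 CPM with Ctrl PIP, 101 and 108 with EnPGC-1, 111 and 138 with SGC-CBP30 and 126 and 175 with DMSO. Psmd3, a lid subunit, was at 183 and 187 CPM with Ctrl PIP, 122 and 126 with EnPGC-1, 135 and 141 with SGC-CBP30 and 142 and 202 with DMSO. Psmd2, the other scaffold of the base, was at 291 and 307 CPM with Ctrl PIP, 192 and 218 with EnPGC-1, 246 and 260 with SGC-CBP30 and 226 and 306 with DMSO. In these 3 genes both EnPGC-1 libraries were the lowest of the 8. The log2 fold changes of EnPGC-1 against Ctrl PIP were -0.70 (SE 0.23) for Psmd1 and -0.57 (SE 0.22) for Psmd3, with an adjusted p of 0.812 for both in edgeR's quasi-likelihood test. Psmd7 was at 132 and 133 CPM with Ctrl PIP, 75 and 80.9 with SGC-CBP30, 73.5 and 90 with EnPGC-1 and 76.6 and 175 with DMSO. For all 11 non-ATPase subunits the log2 fold changes against Ctrl PIP ran from -0.70 to -0.20 with EnPGC-1 and from -0.77 to -0.24 with SGC-CBP30. The 6 ATPases, which unfold substrates, ran from -0.61 to -0.30 and from -0.63 to -0.37. The 7 alpha subunits ran from -0.57 to -0.38 and from -0.62 to -0.52, a narrower range than those of the ATPases and the other regulatory subunits. The chaperones Psmd5, Psmd9 and Psmd10 ran from -0.48 to -0.16 and from -0.38 to -0.22.

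Against DMSO most members were below 0 in the fit of all 8 libraries, but the direction depended on which libraries were kept. With EnPGC-1, 41 of 44 members were below 0, at a median log2 fold change of -0.48 against 0.00 over all genes, and with SGC-CBP30 42 of 44, at -0.53 against -0.03. edgeR's quasi-likelihood test with Benjamini-Hochberg adjustment called 0 of 44 members in either comparison (0% of genes), DESeq2 and limma called 0, and 1 and 0 members were lower at an unadjusted p under 0.05 (1.81% and 2.82% of genes). Without replicate 2 of DMSO the medians were 0.12 and 0.07, with 35 of 44 members above 0 in each, and without replicate 1 they were -0.87 and -0.94. Without the second DMSO and EnPGC-1 libraries together they were -0.14 with EnPGC-1, with 36 of 44 members below 0, and 0.08 with SGC-CBP30, with 9 below 0. With the offset for transcript length they were -0.37 and -0.28. The libraries did not overlap in 4 members in each comparison. These were Psmd1, Psmd2, Psmd3 and Psme3 with EnPGC-1 (9.24% of genes) and Psmb8, Psmc2, Psmd3 and Psme3 with SGC-CBP30 (14.5% of genes), all lower. Leaving out the first DMSO and EnPGC-1 libraries together, edgeR called 17 members lower (4.22% of genes) and 0 higher (2.22%) with EnPGC-1, and 37 lower (19%) and 2 higher (18.2%) with SGC-CBP30. In that fit each of these groups is a single library assumed to vary like the other groups.

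Ctrl PIP and DMSO differed little on average over the 8 libraries, but the median interval of a member ran from -0.96 to 0.88. Differences of nearly 2-fold are therefore not excluded. The median log2 fold change of the 44 was -0.03 against -0.05 over all genes, with 28 members below 0 and 16 above. edgeR's quasi-likelihood test called 0 members (0% of genes) and 0 were lower at an unadjusted p under 0.05 (0.364% of genes), DESeq2 and limma called 0, and no member's libraries were separated, against 7.83% of genes lower and 8.34% higher. The median went to 0.61 without replicate 2 of DMSO and to -0.45 without replicate 1. Without the first DMSO and EnPGC-1 libraries the median was -0.47 for Ctrl PIP against DMSO and -0.21 for EnPGC-1 against Ctrl PIP. Without their second libraries the medians were 0.61 and -0.76. Each of these fits holds a single DMSO and a single EnPGC-1 library, assumed to vary like the other groups. The calls that follow therefore depend on which libraries were kept. Leaving out the second DMSO and EnPGC-1 libraries together, edgeR called 26 members higher (6.69% of genes) and 1 lower (6.9%) with Ctrl PIP against DMSO, and 32 lower (15.8%) and 1 higher (14%) with EnPGC-1 against Ctrl PIP.

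EnPGC-1 and SGC-CBP30 gave like values for most members. The median log2 fold change of EnPGC-1 against SGC-CBP30 was 0.05 against 0.02 over all genes, with 31 members above 0 and 13 below. The median interval of a member ran from -0.82 to 0.99, so differences of nearly 2-fold are not excluded. edgeR's quasi-likelihood test called 0 members (0% of genes), 0 were lower at an unadjusted p under 0.05 (0.931% of genes), and DESeq2 and limma called 0. The 5 immunoproteasome genes had a median of 0.26 and the other 39 a median of 0.03. Psmb10 was at 0.31 (SE 0.37), Psmb8 at 0.28 (SE 0.38) and Psme1 at 0.26 (SE 0.38). Libraries did not overlap in 4 members that were lower with EnPGC-1 (14.7% of genes), Psmd1, Psmd2, Psmd3 and Psme4, and in 1 that was higher (13.2%), Psmd5. The median went from -0.26 to 0.33 as single libraries were left out, and to -0.08 with the offset for transcript length. The test for any difference among the 4 groups called 0 of 44 members and 0% of genes, and 38 members (25.7% of genes) or 31 (21.9%) without the first or the second DMSO and EnPGC-1 libraries.

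The genes that assemble, accompany and control the proteasome were taken from lists outside the 44. Of the 10 assembly factors tested, all were below 0 against Ctrl PIP, at medians of -0.28 with EnPGC-1 and -0.38 with SGC-CBP30, and 0 were called. Pomp, the chaperone that matures the core, was at 139 and 113 CPM with Ctrl PIP, 80.4 and 87.3 with SGC-CBP30, 67 and 127 with EnPGC-1 and 78 and 216 with DMSO. All 9 of the other subunits and associated enzymes were below 0 as well, at medians of -0.33 and -0.38, among them the ubiquitin receptor Adrm1 at -0.31 (SE 0.22) and -0.50 (SE 0.22). The 9 tested transcription factors of proteasome genes and their processing enzymes had medians of 0.04 and 0.09 against Ctrl PIP. Nfe2l1, the factor that raises proteasome genes when the proteasome is blocked, ranged over the 8 libraries from 69 to 82.8 CPM. Nfe2l2 was at 58.5 and 47.2 CPM with EnPGC-1 and 43.7 and 34 CPM with DMSO.

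The 13 genes of MHC class I processing, which use the peptides of the immunoproteasome, had a median log2 fold change of 0.26 with EnPGC-1 against Ctrl PIP, with 10 above 0 and 6 whose libraries were all higher (20.7% of genes). In 2 of the 13, Canx and Calr, the libraries were all lower (21.7% of genes). Canx, a chaperone of the endoplasmic reticulum that binds new class I chains, was at 234 and 266 CPM with EnPGC-1 against 387 and 377 with Ctrl PIP, a log2 fold change of -0.61 (SE 0.23, adjusted p = 0.812 by edgeR's quasi-likelihood test, 0.033 before adjustment). Calr and Pdia3, of the complex that loads peptides, were at -0.29 (SE 0.25) and -0.22 (SE 0.33). Against DMSO the median was 0.14, with 8 above 0 and 6 whose libraries were all higher (9.83% of genes), and edgeR called 0 in both. With SGC-CBP30 against Ctrl PIP the median was 0.06. Irf1, an interferon-induced activator of Psmb9 and Tap1, was at 533 and 498 CPM with EnPGC-1, against 373 and 396 with Ctrl PIP, 490 and 332 with DMSO and 452 and 443 with SGC-CBP30. It was higher in each EnPGC-1 library than in any library of Ctrl PIP or DMSO. Tap1, across the shared stretch from Psmb9, was at 560 and 719 CPM with EnPGC-1, against 570 and 498 with Ctrl PIP, 559 and 529 with DMSO and 651 and 613 with SGC-CBP30. B2m, the light chain of class I molecules, had log2 fold changes against Ctrl PIP of 0.34 (SE 0.23) with EnPGC-1 and 0.05 (SE 0.23) with SGC-CBP30. Nlrc5, the coactivator of class I genes, was at 716 and 232 CPM in the DMSO libraries, the same split between replicates as in the proteasome genes but in the other direction. The 8 genes of ubiquitin supply and handling had medians of -0.13 and -0.10 against Ctrl PIP, smaller than those of the 44.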

How the data were processed

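The authors deposited whole-number counts per gene (Entrez gene IDs, 45777 genes) and regularized log2 values (rlog) of 16442 genes. The submitters' processing notes name HISAT2, StringTie, DESeq2 and the build mm10, with neither version nor role. Of the counting program, its strand setting and its annotation nothing is said in those notes, so overlapping or near-identical genes may share counts. The library kit marks strand, per the labels' protocols. There were 0 columns of other samples.

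The main test was edgeR's quasi-likelihood test on the deposited counts (edgeR 4.0.16 in R 4.3.3, robust, TMM, filterByExpr, group means over all 8 libraries, 4 residual degrees of freedom), which left 16750 genes. It was two-sided, with Benjamini-Hochberg adjustment over all genes at 0.05. CPM are scaled by the TMM library sizes. Total counts ranged from 38890043 to 55491261, and intervals cover the spread between libraries. Gene symbols and positions came from RefSeq on GRCm38.p6 (99.8% of IDs matched), and transcript lengths from GENCODE mouse release M21, principal transcript, known for all 44 members and 77.3% of the genes tested. A library's length trend was a smooth curve (mgcv 1.9.3) over all tested genes with a known length. The Spearman rho of each library with length was taken over 8903 genes with a mean log2 CPM above 3. The common coefficient of variation was 0.415 over all genes tested. With the length trend removed it was 0.329, but only over genes with a known length, so the part of the trend in this difference was not tested. The main test, for EnPGC-1 against DMSO only, was also run on simulated counts with known changes, whose outcome is not reported here.

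The 44 members, their roles and 12 lists were chosen with earlier results of these data known. Named genes were the 6 catalytic subunits, the activators, up to 3 members per direction and comparison with the smallest p, and fixed genes of the lists. Genes named because their libraries did not overlap, and Psmd2, were chosen after their values were seen. Alternatives were DESeq2 size factors, DESeq2 1.42.0, no filter, the replicate number as a block, the 4 libraries compared, limma 3.58.1 on the deposited log2 values, each library left out, DMSO and EnPGC-1 without their first or without their second libraries, and the length offset. The crossed block, the shares after removal of the length trend, and the members' medians under each alternative were chosen after seeing the data. Psme2b counts and the paralogs of the beta subunits were taken as deposited. Values of some single genes of the lists are not reported here.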

Additional observations from a re-analysis of the deposited data

How the results depend on the processing

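Depth was not the limit, since each member had counts in every library. The spread between 2 libraries per group set the precision, and a member's 95% interval reached a median of 0.91 log2 units to either side. The counts of members called stayed at 0 under DESeq2 size factors, DESeq2's test, no filter on low counts, limma on the deposited log2 values, the length offset and every single library left out. A lone library was assumed to vary like the other groups. Only the 4 libraries compared gave 26 calls for SGC-CBP30 against Ctrl PIP. Without the first DMSO and EnPGC-1 libraries the counts were 17 for EnPGC-1 against DMSO, 39 for SGC-CBP30 against DMSO, 26 for SGC-CBP30 against Ctrl PIP and 38 for any difference among the groups. Without their second libraries they were 27 for Ctrl PIP against DMSO, 33 for EnPGC-1 against Ctrl PIP, 25 for SGC-CBP30 against Ctrl PIP and 31 for any difference. These fits leave a lone library in each of the groups with the widest replicate spread. Their spread comes from the 4 libraries of SGC-CBP30 and Ctrl PIP. For that comparison they are therefore not tests separate from the fit with 26 calls.

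With single libraries left out, the members' median log2 fold change ran from -0.87 to 0.12 for EnPGC-1 against DMSO, from -0.45 to 0.61 for Ctrl PIP against DMSO and from -0.94 to 0.07 for SGC-CBP30 against DMSO. Without the first DMSO and EnPGC-1 libraries it was -0.47 for Ctrl PIP against DMSO, and without the second 0.61, with 0.08 for SGC-CBP30 against DMSO and -0.14 for EnPGC-1 against DMSO (36 of 44 members below 0). The medians of EnPGC-1 and of SGC-CBP30 against Ctrl PIP stayed below 0 under every alternative.

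Some of the named members changed sign, and the cause was not tested. With single libraries left out, EnPGC-1 against Ctrl PIP ran from -0.37 to 0.30 for Psmb10, from -0.50 to 0.10 for Psmb8, from -0.40 to 0.51 for Psmb9, from -0.35 to 0.26 for Psme1 and from -0.79 to 0.03 for Psme2, and SGC-CBP30 against Ctrl PIP ran from -0.22 to 0.12 for Psmb9. Without the first DMSO and EnPGC-1 libraries, EnPGC-1 against Ctrl PIP was 0.11 for Psmb8, 0.27 for Psme1 and 0.03 for Psme2, and without the second -0.37 for Psmb10 and -0.40 for Psmb9. Psmb10 was 0.00 in limma, and Psme1 was 0.00 with DESeq2 size factors, in DESeq2 and without a filter. The length offset gave 0.06 for Psme1 and -0.08 for Psme4 with EnPGC-1, and 0.13 for Psmb9 and -0.11 for Psme4 with SGC-CBP30. The share differences of the 3 catalytic pairs between EnPGC-1 and Ctrl PIP were 7.73, 11 and 10.7 percentage points, and 5.42, 9.27 and 10.6 points on counts not divided by length.

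The groups share only replicate numbers. With the replicate block 0 members were called in each comparison, and Psmb10 with EnPGC-1 against Ctrl PIP was at -0.04. Across genes, the replicate differences of EnPGC-1 and DMSO correlated at 0.666, while those of Ctrl PIP correlated at -0.252 with DMSO and at -0.226 with EnPGC-1. With the numbers of Ctrl PIP exchanged in the block, 0 members were called against DMSO and with EnPGC-1, and Psmb10 was at -0.02.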
